A study of Schizosaccharomyces pombe with 37 samples.

Results

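The genes described here lie near both ends of chromosome II of the fission yeast Schizosaccharomyces pombe and include the gal cluster and SPBPB2B2.06c. They were chosen by systematic identifier, as the features of 5 sequenced clones (SPBC1348, SPBPB21E7, SPBPB10D8, SPBPB2B2 and SPBCPT2R1). Of 57 such features, ght7 was left out by its name, since the ght hexose transporter family was set apart, which leaves 56 of the 6996 features in the table. In RefSeq's annotation of assembly ASM294v3 all 56 lie on chromosome II within 99.9 kb of an assembled end, 30 of them at the left end and 26 at the right end.

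Steady-state RNA was measured by total RNA-seq in 9 mutants affecting the cleavage and polyadenylation factor (CPF) or its signal and in wild type, with 3 libraries each. The mutants carry yth1-R59C or pfs2-F115H, substitutions in 2 subunits of CPF's poly(A) polymerase module; a deletion of ssu72, dis2, ppn1 or swd22, from its phosphatase module; or an altered poly(A) signal (PAS) of the reporter, which reads AAUUAA (label PAS-T4A), AAUGAA (PAS-T4C) or AAUCAA (PAS-T4G) by the study's strain list. All strains, wild type included, are h-, carry leu1-32, ura4-D18, ade6-704 and the trp1+::ade6+ reporter, and were grown in YES, a rich medium, at 30 °C. The paper states that the strains of its RNA-seq comparison made no primary small RNAs from an ade6 hairpin. Each library averages over all cells of a culture, so that more cells with an RNA and more RNA per cell cannot be told apart.

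Between 1031839 and 6343790 reads on the listed features lie behind a library. Levels are given in CPM, a gene's count relative to the total counted in that library, and 3 reads, the floor used for detection, are worth between 0.473 and 2.91 CPM. No read of ssu72, dis2 or swd22 was counted in the 3 libraries of the corresponding deletion. The libraries labelled ppn1Δ had 76.3, 77.3 and 86.1 CPM of ppn1, against a mean of 73.2 ± 9.07 CPM in wild type (SD, n = 3), which goes against their label, and they are called by that label throughout.

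Genes close to the ends of chromosomes in fission yeast lie in or beside heterochromatin, which is kept silent by methylation of histone H3 and by histone deacetylation. The stretch next to the telomere repeats is a mosaic of gene families with copies at several chromosome ends. Farther in, on chromosome II, lies the gal cluster. Gal1 (galactokinase), Gal7 (uridylyltransferase) and Gal10 (epimerase) carry out the Leloir pathway, which turns galactose into a glucose phosphate. Dis2 is a catalytic subunit of protein phosphatase PP1 that works in CPF together with Ppn1 and Swd22, and Ssu72 is a CPF phosphatase of another family.

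Many members, most of them near the very ends, had few or no reads. Of the 56 members, 24 (42.9%) had no read in any of the 30 libraries, against 341 of the 6996 features in the whole table (4.87%). Another 12 had between 1 and 58 reads in all libraries together and a mean under 1 CPM. The remaining 20 had a mean of at least 1 CPM, with 80 to 9231 reads each, and only these were tested. They lie between 35.1 and 87.7 kb from an end.

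The authors counted reads of 50 bases that align uniquely, so each member's exons were cut into every window of 50 bases and each window was looked up on both strands of ASM294v3. In 32 of the 56 members (57.1%) under 50% of the windows occur once in the genome, against 307 of the 6996 features (4.39%; 6804 of them were placed). Of the 24 members with no read, 17 have no window that occurs once, and the median of the 24 is 0%. Among the 20 tested members the median is 100%, and 19 of them have at least 90%. The exception is SPBPB21E7.09, annotated as an L-asparaginase, with 41.7% of its windows unique. SPBPB21E7.05, which encodes an uncharacterized protein, is the other way round, with 100% of its windows unique and 0 reads. A value of 0 for a repeated member therefore does not show that its RNA was missing.

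**Figure D1:**
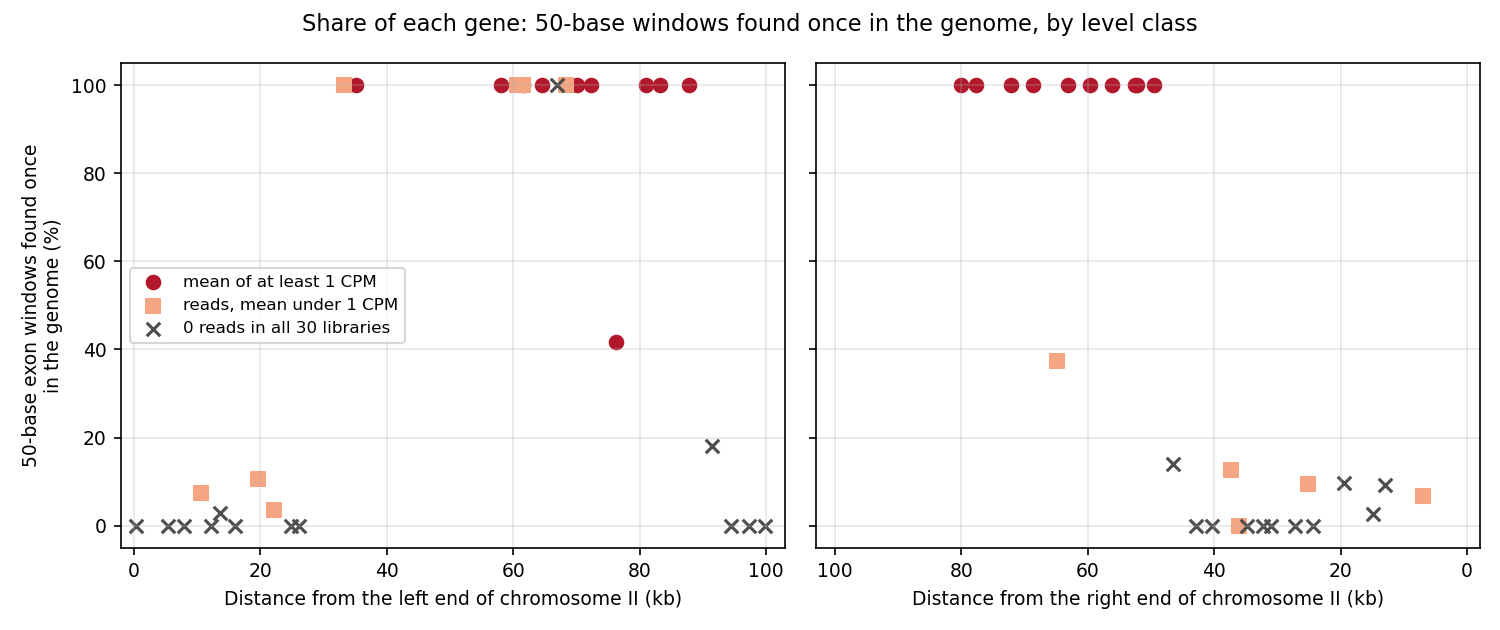
Share of 50-base exon windows found once in the genome (y axis, %) for each of the 56 members, by distance from the left end (left panel) and right end (right panel) of chromosome II (x axis, kb). Circles are the 20 members with a mean of at least 1 CPM, squares the 12 with fewer reads and crosses the 24 with no read; nearly all circles sit at 100% and lie at least 35.1 kb from the end.

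Stretches of coding sequence from 3 members are printed to show the difference between a repeated and a unique member. The first is from SPBC1348.01, a member of the DUF999 protein family at the left end (chrII:5670-5719, plus strand). The same 50 bases stand at 5 places, in SPBC1348.01, in the members SPBCPT2R1.01c and SPBCPT2R1.04c at the right end, and in SPAC212.04c and SPAC212.01c on chromosome I. The next is from SPBPB10D8.05c, a transporter (chrII:95027-95076, minus strand), whose 50 bases recur at 4 places in a row, SPBPB10D8.04c to SPBPB10D8.07c. All 4 of these transporter genes had 0 reads. The last is from SPBC1348.12, a DNA-binding transcription factor (chrII:35386-35435, plus strand), and is found at 1 place. All letters are in lower case, since no part of these windows is set apart, and are taken from RefSeq's ASM294v3.
SPBC1348.01: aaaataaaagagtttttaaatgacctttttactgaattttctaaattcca
SPBPB10D8.05c: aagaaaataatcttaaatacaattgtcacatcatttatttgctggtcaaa
SPBC1348.12: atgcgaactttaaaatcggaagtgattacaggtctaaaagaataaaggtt

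The number of members without reads differed between the clones. Next to the ends, 8 of 13 members of SPBC1348 and 7 of 9 of SPBCPT2R1 had no read, and none of the SPBCPT2R1 members reached the filter, tlh2 included, a helicase gene of RecQ type. In SPBPB10D8 the 4 repeated transporters had no read. Only 1 of 10 members of SPBPB21E7 and 4 of 17 of SPBPB2B2 had none.

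Levels were divided by exon length to set members side by side. Per kilobase of exon, aes1 (phenazine biosynthesis family) stood at 524 CPM per kb in dis2Δ and 62.7 CPM per kb in wild type, pan5 (2-dehydropantoate 2-reductase) at 81.1 in dis2Δ and 44.4 in wild type, and SPBPB10D8.01 (a cysteine transporter) at 55.6 in dis2Δ and 42.1 in wild type, the 3 with the highest wild-type levels of the 56. SPBPB2B2.06c stood at 58.9 CPM per kb in dis2Δ and 1.15 CPM per kb in wild type, the lowest of the 20 tested members but for SPBPB2B2.08. Summed over all 56 members, the CPM of the 3 dis2Δ libraries was 1335, 1514 and 1567, against 467, 427 and 391 in wild type. Without aes1 the sums averaged 855 ± 58.9 CPM in dis2Δ and 354 ± 32.0 CPM in wild type (SD, n = 3 each). The lowest sums were those of swd22Δ, with 245, 261 and 286 CPM.

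In dis2Δ, members at both ends of chromosome II were higher than in wild type, and the log2 fold changes of those called ran from 1.07 to 5.20. A gene was called when its adjusted p in limma was under 0.05 and its change at least 2-fold. Of the 20 tested members 10 were called higher and 0 lower, against 1.3% of all 5911 tested genes called higher and 0.711% called lower. All 20 fold changes were positive, with a median of 1.07 on the log2(CPM + 1) scale, against 0.09 over all tested genes. In 18 of the 20 all 3 dis2Δ libraries lay above all 3 wild-type libraries, which held for 24.6% of all tested genes. Of the 20, SPBPB2B2.08 passed the filter only through its reads in dis2Δ and so had to differ. Without it 9 of 19 were called higher and 0 lower, and in 17 of 19 the groups did not overlap.

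The gene with the largest fold change was SPBPB2B2.06c, which encodes a phosphoprotein phosphatase related to 5′-nucleotidases. It had 95.7, 123 and 160 CPM in the dis2Δ libraries, against 2.01, 1.89 and 3.50 CPM in wild type. Every dis2Δ library was far above every other library of the series, of which the highest was an ssu72Δ library at 33.6 CPM. The log2 fold change was 5.20 ± 0.44 (SE; limma, adjusted p = 7.89e-11). In the same fit dis2Δ was also higher than each of the other mutants, by 2.61 ± 0.44 over ssu72Δ, which is the smallest of these differences (adjusted p = 3.92e-05), and by 3.87 ± 0.44 over swd22Δ (adjusted p = 3.80e-08). These contrasts between mutants were added after the values were seen.

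The 250 bases upstream of the annotated starts are printed for some of the members called higher in dis2Δ. SPBPB2B2.06c (chrII:4471165-4471414, minus strand) and aes1 (chrII:69882-70131, plus strand) had the largest mean CPM in dis2Δ of those called. SPBC1348.12 (chrII:34862-35111, plus strand) and gal10 (chrII:4487536-4487785, minus strand) are examples with a motif. They are from RefSeq's ASM294v3, 5′ to 3′ on the strand of the gene. Capitals mark CCAAT, read on either strand as CCAAT or ATTGG, the element bound by the CCAAT-binding factor. The window of gal10 overlaps the non-coding RNA SPNCRNA.6632.
SPBPB2B2.06c: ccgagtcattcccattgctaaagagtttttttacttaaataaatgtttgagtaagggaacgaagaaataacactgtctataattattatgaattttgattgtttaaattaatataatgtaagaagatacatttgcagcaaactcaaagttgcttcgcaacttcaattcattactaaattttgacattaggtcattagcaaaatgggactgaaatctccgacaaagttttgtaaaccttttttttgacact
aes1: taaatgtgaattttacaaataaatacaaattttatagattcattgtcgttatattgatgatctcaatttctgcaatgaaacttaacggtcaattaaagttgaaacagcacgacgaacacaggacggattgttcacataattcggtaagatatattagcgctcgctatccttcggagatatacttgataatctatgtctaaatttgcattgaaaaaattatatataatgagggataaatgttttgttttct
SPBC1348.12: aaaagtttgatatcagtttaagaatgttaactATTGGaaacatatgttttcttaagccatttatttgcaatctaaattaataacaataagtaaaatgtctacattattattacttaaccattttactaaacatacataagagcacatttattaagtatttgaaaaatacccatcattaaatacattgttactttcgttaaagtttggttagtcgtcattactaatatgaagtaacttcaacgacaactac
gal10: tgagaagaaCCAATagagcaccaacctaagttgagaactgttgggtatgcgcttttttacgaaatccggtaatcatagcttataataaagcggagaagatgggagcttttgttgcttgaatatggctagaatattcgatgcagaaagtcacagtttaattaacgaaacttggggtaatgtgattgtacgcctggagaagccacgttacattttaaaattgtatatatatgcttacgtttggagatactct

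CCAAT occurs in 35.3% of 5110 such windows, taken from protein-coding genes across the genome, and in 8 of the 20 tested members. It occurs in 6 of the 10 called higher in dis2Δ, SPBC1348.12, SPBPB21E7.08, SPBPB10D8.02c, gal10, SPBPB2B2.08 and say1. The 20 and the 10 also hold pseudogenes, SPBPB21E7.08 and SPBPB10D8.03, and SPBPB2B2.08, which passed the filter only through dis2Δ. The core TGACGT, read on both strands and known as a binding element of Atf1, occurs in 5.52% of windows and in 1 of the 20 members, say1. CCCCTC, on both strands, occurs in 1.70% of windows and in 0 of the 20. Of the 3 motifs only CCAAT occurs in the printed windows, and a match is a description of the letters only.

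At the left end, the clone SPBPB21E7 held 3 members that rose in dis2Δ. aes1 had 534, 668 and 649 CPM in dis2Δ, against 77.5, 80.9 and 63.6 CPM in wild type. The groups lay far apart, and the highest library of any other strain had 134 CPM. Its log2 fold change was 3.04 ± 0.16 (SE; limma, adjusted p = 1.25e-16). cmt2, a catechol O-methyltransferase, had 46.9, 36.3 and 48.7 CPM in dis2Δ, against 3.51, 4.89 and 4.04 CPM in wild type. It rose by 3.12 ± 0.28 (adjusted p = 3.29e-10 in limma), with no overlap between the groups. The pseudogene SPBPB21E7.08, next to aes1, had 33.4, 42.4 and 52.4 CPM in dis2Δ and 6.02, 3.94 and 5.39 CPM in wild type. SPBPB21E7.08 had a log2 fold change of 2.83 ± 0.33 (adjusted p = 1.54e-07 in limma).

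SPBC1348.12, the tested member closest to an end (35.1 kb), had 37.9, 33.9 and 41.9 CPM in dis2Δ, against 4.01, 3.78 and 5.66 CPM in wild type. The log2 fold change was 2.84 ± 0.34 (adjusted p = 2.36e-07 in limma). It was called in dis2Δ only, and its highest library in any other strain had 9.77 CPM. Its neighbour SPBC1348.11, a transporter pseudogene, had too few reads to be tested, with 8, 7 and 5 reads in the dis2Δ libraries and 0, 0 and 1 read in wild type. SPBPB21E7.06, another pseudogene, had 3, 1 and 3 reads in dis2Δ, none in wild type and 1 read in the other 24 libraries together. The untested members did not all go this way. SPBPB21E7.10 had 0, 1 and 0 reads in dis2Δ and 2, 9 and 2 in wild type (means of 0.157 and 0.820 CPM). SPBCPT2R1.04c, at the right end, had 1, 2 and 0 reads in dis2Δ and 6, 4 and 5 in wild type (means of 0.528 and 1.16 CPM).

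Farther from the left end, in SPBPB10D8, the arylsulfatase gene SPBPB10D8.02c had 48.8, 51.3 and 47.9 CPM in dis2Δ, against 24.3, 23.0 and 21.5 CPM in wild type. The groups did not overlap, and the log2 fold change of 1.07 ± 0.21 lies just past the threshold of 2-fold (adjusted p = 0.000638 in limma). The transporter pseudogene SPBPB10D8.03 had 27, 18.4 and 19.5 CPM in dis2Δ and 5.52, 3.78 and 2.96 CPM in wild type. It rose by 2.16 ± 0.35 (adjusted p = 5.28e-05 in limma). For SPBPB10D8.01, the cysteine transporter, the values were 125, 137 and 129 CPM in dis2Δ and 112, 97.4 and 86.2 CPM in wild type, a log2 fold change of 0.41 ± 0.14 that was not called. With a pseudocount of 4, or with median-of-ratios scaling, SPBPB10D8.02c fell below 2-fold, at 0.99 and 0.98.

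At the right end SPBPB2B2.08, a conserved fungal protein, had 6, 8 and 9 reads in dis2Δ (3.85, 3.77 and 6.74 CPM), against 0, 3 and 1 reads in wild type (0, 0.473 and 0.269 CPM). The groups did not overlap, but the reads are few and the gene reached the filter only through those in dis2Δ, so these values are a description and its test in dis2Δ is not given. say1, a sterol deacetylase, had 8.99, 8.95 and 9.73 CPM in dis2Δ and 4.26, 5.36 and 2.42 CPM in wild type. The groups did not overlap, with a log2 fold change of 1.07 ± 0.32 (adjusted p = 0.0256 in limma). That call was lost in 6 of 16 alternatives, among them without wild-type replicate 3, where the log2 fold change was 0.82, and without any 1 of the dis2Δ replicates.

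**Figure D2:**
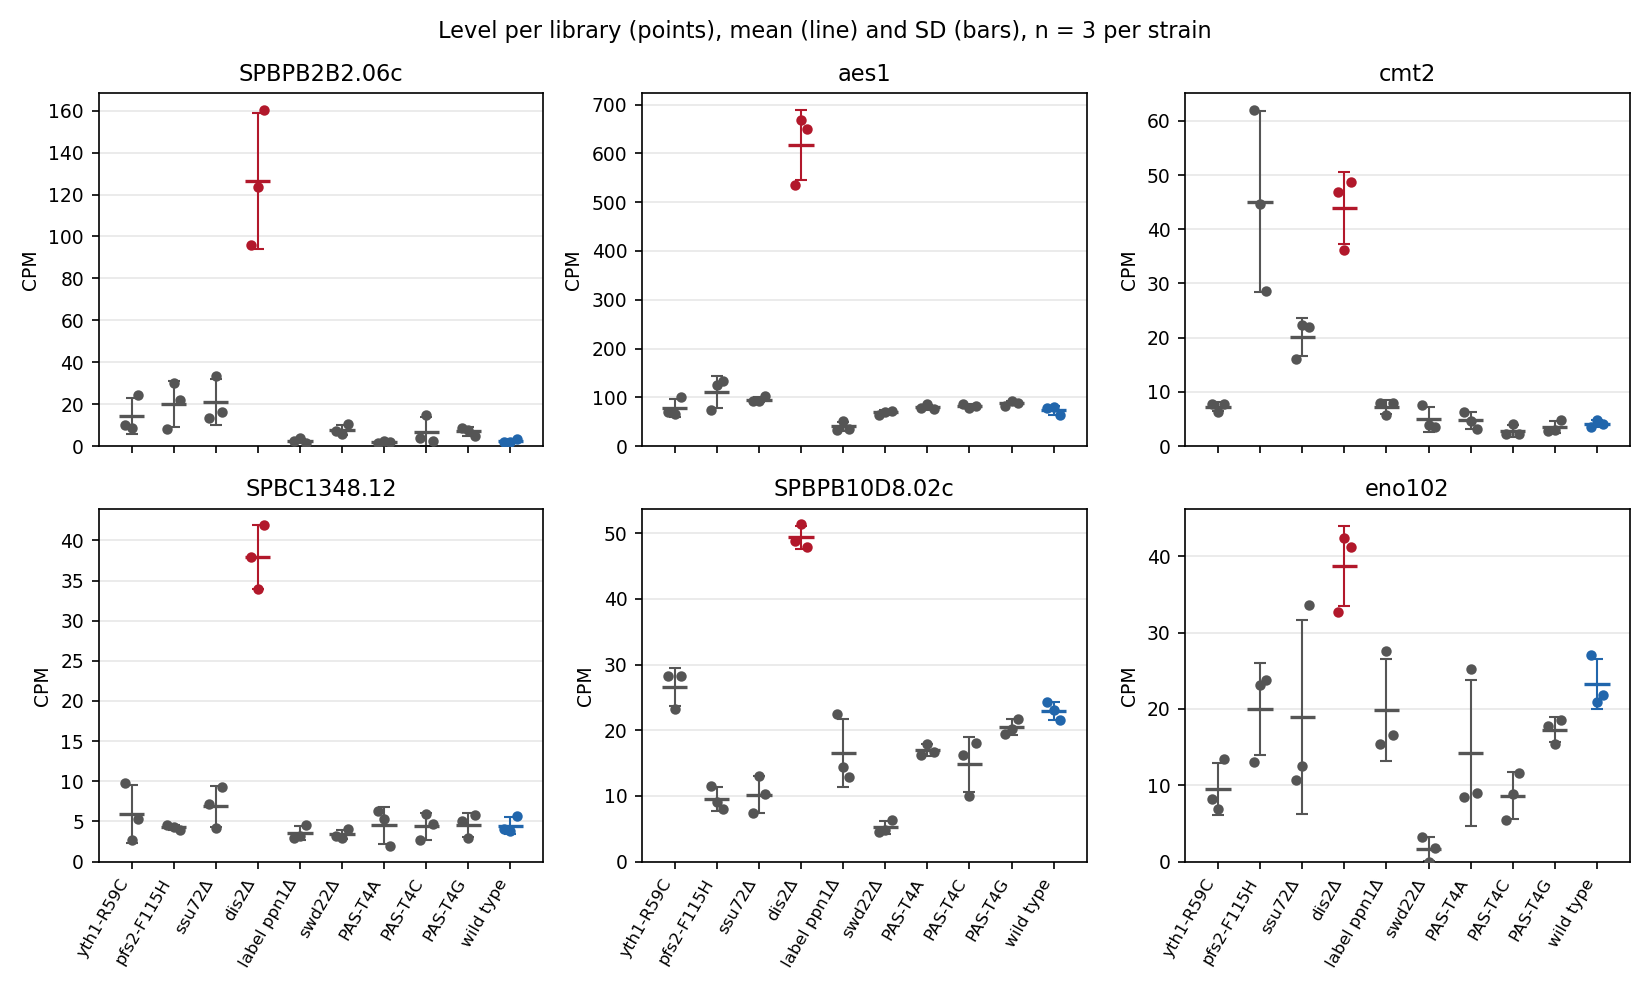
Level in CPM (y axis, linear, from 0) in each of the 30 libraries by strain (x axis) for 6 members, with the mean as a line and the SD as bars (n = 3 per strain). dis2Δ is in red and wild type in blue. SPBPB2B2.06c, aes1, SPBC1348.12 and SPBPB10D8.02c were highest in all 3 dis2Δ libraries, cmt2 was about as high in pfs2-F115H as in dis2Δ, and eno102 and SPBPB10D8.02c were lowest in swd22Δ.

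Of the gal cluster, 1 gene was called in dis2Δ and the other 3 had smaller positive values. gal10 had 33.4, 37.2 and 28.4 CPM in dis2Δ, against 13.3, 12.14 and 9.96 CPM in wild type. It rose with a log2 fold change of 1.41 ± 0.22 (adjusted p = 2.74e-05 in limma). gal1 had 80.3, 68.8 and 77.1 CPM in dis2Δ and 45.9, 34.8 and 35.5 CPM in wild type, without overlap, and its log2 fold change of 0.95 ± 0.17 missed the minimum of 2-fold (adjusted p = 0.000212 in limma). It passed without dis2Δ replicate 2, at 1.01, or wild-type replicate 1, at 1.07. gal7 had 26.3, 41.0 and 26.9 CPM in dis2Δ, against 16.3, 17.2 and 15.6 CPM in wild type. All dis2Δ libraries were higher here too, with a log2 fold change of 0.87 ± 0.22 (adjusted p = 0.00848 in limma).

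tgd1 (SPBPB2B2.11), a nucleotide-sugar dehydratase on the strand opposite to gal10 and overlapping it, had 8.35, 10.4 and 11.2 CPM in dis2Δ and 6.02, 3.31 and 3.77 CPM in wild type. Its adjusted p was 0.0564 in limma, with a log2 fold change of 1.06 ± 0.37, and 0.0173 in edgeR and 0.0329 in DESeq2, which both called it, as did the fit without wild-type replicate 1, at 1.27. Counting used the strand, so reads of tgd1 and gal10 are told apart. In ssu72Δ gal1, gal10 and gal7 had means between those of dis2Δ and wild type, with 53.2 ± 2.22 CPM of gal1, 18.9 ± 1.42 of gal10 and 23.0 ± 4.61 of gal7 (SD, n = 3), and none was called. Set directly against ssu72Δ, gal10 in dis2Δ was higher by 0.76 ± 0.22 and gal1 by 0.49 ± 0.17 (adjusted p = 0.0140 and 0.0433 in limma), both less than 2-fold. Of 7 genes of the Leloir pathway and UDP-sugar supply, gal1, gal7 and gal10 included, gal10 was the only one called in dis2Δ, and 4 passed the adjusted p alone, all with positive fold changes.

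**Figure D3:**
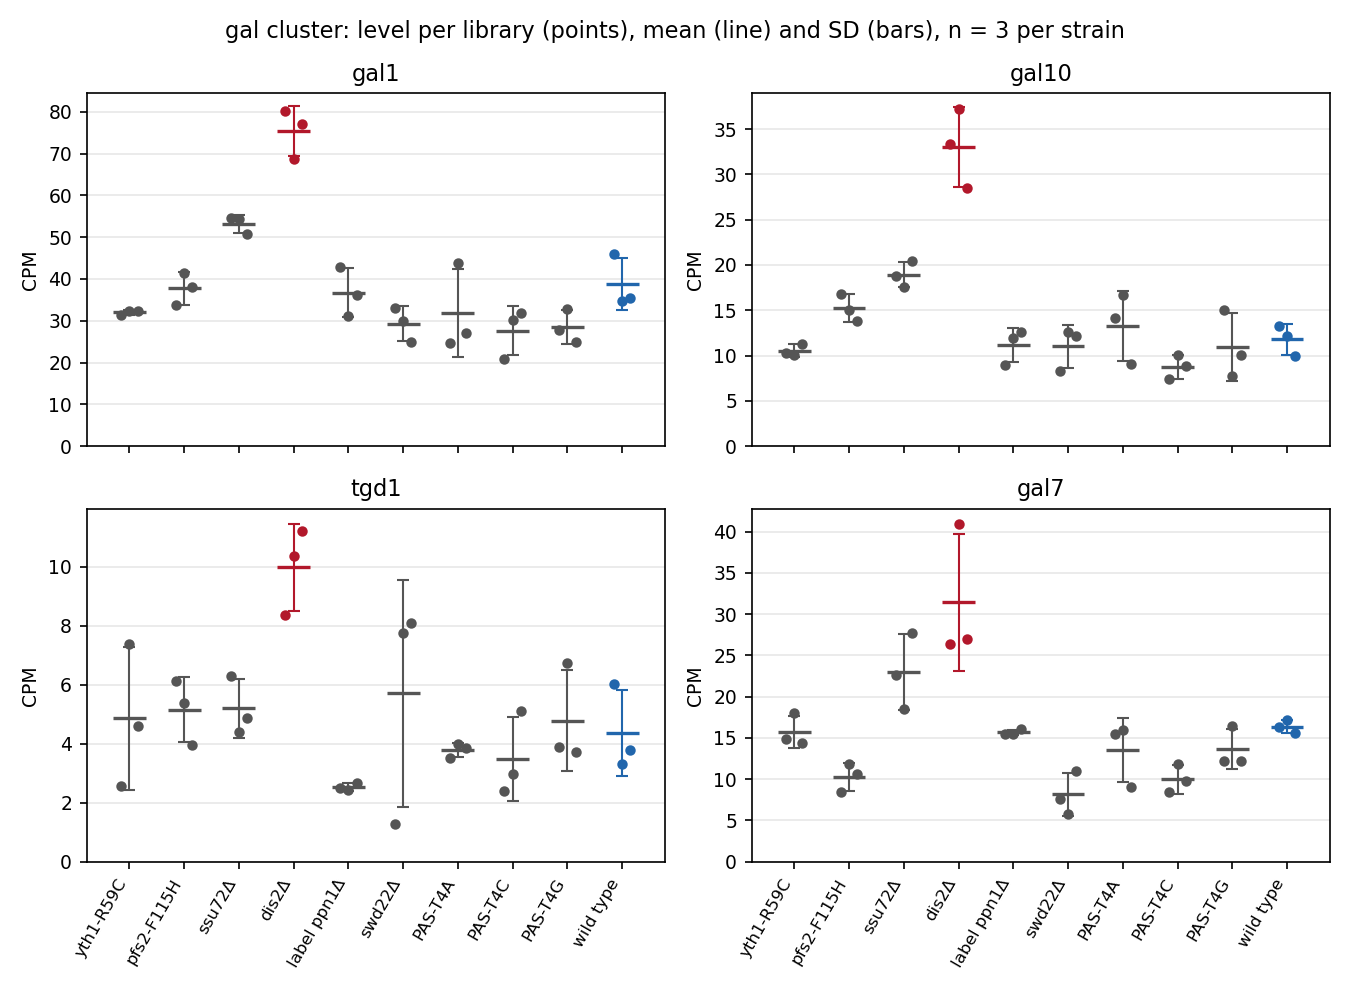
Level in CPM (y axis, linear, from 0) of the 4 genes of the gal cluster in each library by strain (x axis), with the mean as a line and the SD as bars (n = 3 per strain); dis2Δ is red and wild type blue. In each of the 4 genes all dis2Δ libraries lie above all wild-type libraries.

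The remaining tested members were not called in dis2Δ. pan5, next to gal7, averaged 119.9 ± 4.99 CPM in dis2Δ and 65.7 ± 1.96 CPM in wild type (SD, n = 3 each), a difference clear of the spread (log2 fold change 0.86 ± 0.15, adjusted p = 9.40e-05 in limma) but under 2-fold. eno102, an enolase, had 38.8 ± 5.24 CPM in dis2Δ and 23.3 ± 3.32 CPM in wild type (SD, n = 3 each). The groups of SPBPB21E7.11 and of SPBPB2B2.05, a glutamine amidotransferase, overlapped. SPBPB21E7.09 and the amino-acid permease SPBPB2B2.01 had log2 fold changes of 0.89 and 0.53 (adjusted p = 0.196 and 0.0962 in limma).

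Position along the chromosome gives a description of how far this reached. Within 100 kb of the left end of chromosome II, 11 of 20 tested genes of any name were higher in dis2Δ and 0 lower. Between 100 and 200 kb 2 of 49 were higher and 2 lower, between 200 and 300 kb 1 of 49 was higher and 0 lower, and from there to the centre 7 of 931 were higher and 4 lower. Toward the right end 6 of 15 were higher and 0 lower within 100 kb. Those 6 include SPBPB2B2.08, which passed the filter only through dis2Δ. Up to 200 kb 1 of 48 was higher and 0 lower, up to 300 kb 0 of 45 in either direction, and beyond 10 of 983 were higher and 8 lower. Within 100 kb of the left end of chromosome I 2 of 21 were higher and 2 lower, and at its right end 1 of 20 was higher and 0 lower. Among the genes of chromosome II that lie within the same distance but are not members, 7 of 15 were higher and 0 lower. Their median log2 fold change was 0.96, and by these counts the members are not set apart from their neighbours. Whether any of these neighbours passed the filter only through dis2Δ was not checked. Genes coding for telomere proteins (10 tested) and for silencing factors at chromosome ends (13 tested) had 0 calls in dis2Δ in limma, edgeR and DESeq2. Of all tested genes limma called 1.3% higher and 0.711% lower, so 0 calls in such short lists does not show that these genes were unchanged. In limma 2 and 3 of them had an unadjusted p under 0.05, and 1 silencing factor passed the adjusted p alone, with a positive fold change.

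**Figure D4:**
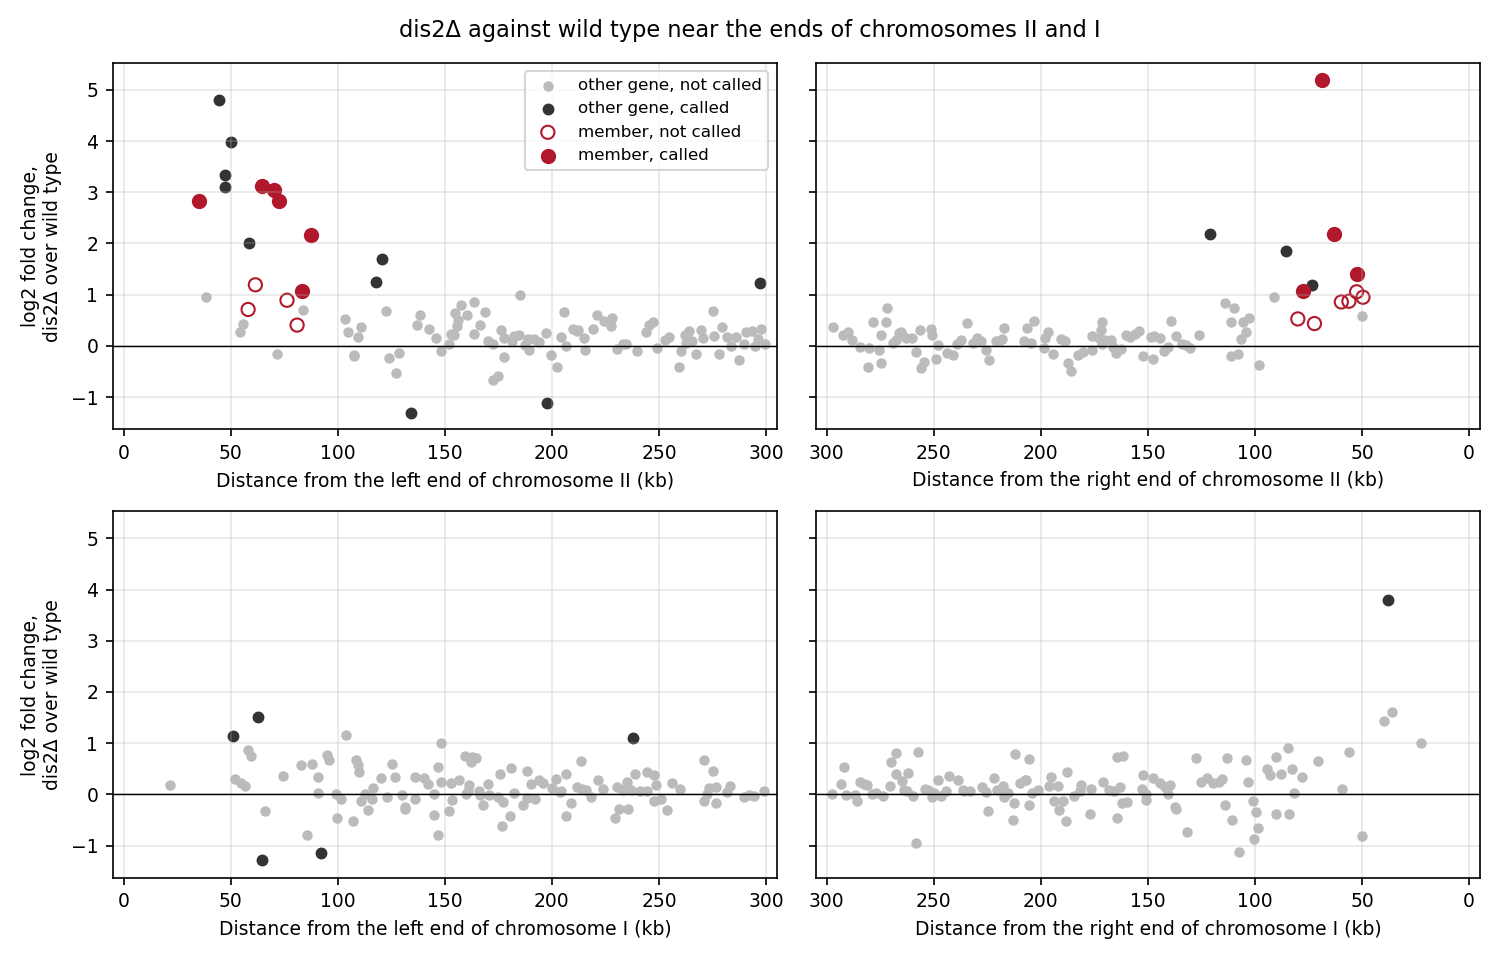
Log2 fold change of dis2Δ over wild type on the log2(CPM + 1) scale (y axis) of tested genes by distance from the left and right ends of chromosome II (upper panels) and chromosome I (lower panels; x axis, kb). Red filled circles are called members, red open circles other members, black points called genes that are not members and grey points the rest; called genes with positive values crowd within 100 kb of both ends of chromosome II.

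dis2Δ was also compared with each other mutant, in contrasts added after the values were seen. Members were called higher in dis2Δ in all 8 of these contrasts and lower in none. The count was 9 of 20 against pfs2-F115H, where 1.22% of all tested genes were called higher and 2.28% lower, and 9 against ssu72Δ (0.998% and 2.33%). It was 11 against yth1-R59C (1.03% and 1.18%), 14 against the libraries labelled ppn1Δ (2.23% and 1.35%) and 18 against swd22Δ (2.79% and 0.88%). Against the strains with an altered signal it was 17 in PAS-T4A (2% and 0.744%), 17 in PAS-T4C (2.59% and 0.406%) and 15 in PAS-T4G (1.79% and 0.694%). These counts are over the 20 that passed the filter, SPBPB2B2.08 included, which passed only through dis2Δ. Without it the counts were 8 of 19 against pfs2-F115H, 9 against ssu72Δ, 10 against yth1-R59C, 13 against the libraries labelled ppn1Δ, 17 against swd22Δ, 16 against PAS-T4A, 16 against PAS-T4C and 14 against PAS-T4G. These contrasts share the dis2Δ libraries.

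In swd22Δ 5 members fell and 1 rose, against 1.73% and 1.17% of all tested genes. Of the other tested genes within 99.9 kb of an end, 5 of 41 on chromosome I fell and 1 rose. On chromosome II 2 of 15 fell and 0 rose. The median log2 fold change of the 20 was -0.40, against -0.04 over all tested genes. Of the 5 members that fell, 3 are neighbours in SPBPB10D8. SPBPB10D8.02c had 4.46, 4.85 and 6.37 CPM in swd22Δ, against 24.3, 23.0 and 21.5 CPM in wild type. Every swd22Δ library was far below every wild-type library, with a log2 fold change of -1.96 ± 0.21 (adjusted p = 2.02e-08 in limma). SPBPB10D8.01 had 33.1, 38.8 and 46.3 CPM in swd22Δ and 112, 97.4 and 86.2 CPM in wild type, and its log2 fold change was -1.30 ± 0.14 (adjusted p = 1.07e-08 in limma). SPBPB10D8.03 had 1.27, 0 and 1.74 CPM in swd22Δ, at or under the floor of 3 reads, and 5.52, 3.78 and 2.96 CPM in wild type. Its log2 fold change was -1.44 ± 0.35 (adjusted p = 0.00357 in limma). The call was lost in 3 of 16 alternatives, among them without swd22Δ replicate 2, where the value was -1.0.

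The other 2 were eno102 and SPBPB2B2.01. eno102 had 3.18, 0 and 1.74 CPM in swd22Δ, that is 5, 0 and 3 reads, against 27.1, 21.0 and 21.8 CPM in wild type, and fell by 3.42 on the log2 scale (SE 0.40; adjusted p = 1.17e-07 in limma). SPBPB2B2.01, at the right end, had 7.64, 5.81 and 7.52 CPM in swd22Δ and 29.6, 26.2 and 25 CPM in wild type. It fell by 1.81 on the log2 scale (SE 0.21; adjusted p = 8.91e-08 in limma), and the groups lay well apart. SPBPB2B2.06c went the other way, with 7.0, 5.81 and 10.4 CPM in swd22Δ against 2.01, 1.89 and 3.50 CPM in wild type. Its log2 fold change was 1.33 ± 0.44 (adjusted p = 0.0272 in limma), and 7 of 17 alternatives lost the call, among them edgeR and leaving out swd22Δ replicate 1 or 3 or wild-type replicate 1 or 2.

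ssu72Δ and pfs2-F115H moved members in both directions. In ssu72Δ 4 of the 20 rose and 2 fell, against 2.96% and 0.508% of all tested genes. In pfs2-F115H 4 rose and 1 fell, against 2.62% and 0.508%. Other tested genes within 99.9 kb of an end were counted too. On chromosome I 0 of 41 rose and 4 fell in ssu72Δ, and 6 rose and 3 fell in pfs2-F115H. On chromosome II 2 of 15 rose and 2 fell in ssu72Δ, and 3 rose and 2 fell in pfs2-F115H. cmt2, SPBPB21E7.08 and SPBPB2B2.06c rose in both strains and SPBPB10D8.02c fell in both, and the 2 comparisons share the wild-type libraries.

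cmt2 had 62.0, 44.6 and 28.6 CPM in pfs2-F115H and 16.1, 22.3 and 21.9 CPM in ssu72Δ, against 3.51, 4.89 and 4.04 CPM in wild type. Its log2 fold change was 3.10 ± 0.28 in pfs2-F115H (adjusted p = 5.37e-10 in limma) and 2.03 ± 0.28 in ssu72Δ (adjusted p = 2.18e-06). In a direct contrast dis2Δ differed from pfs2-F115H by 0.02 ± 0.28 in cmt2 (adjusted p = 0.981), which does not show that they were alike. SPBPB21E7.08 had 14.5, 28.5 and 20.9 CPM in pfs2-F115H and 20.3, 13.9 and 33.1 CPM in ssu72Δ, all above the 3.94 to 6.02 CPM of wild type. Its log2 fold changes were 1.83 ± 0.33 and 1.87 ± 0.33 (adjusted p = 0.000167 in pfs2-F115H and 0.000107 in ssu72Δ, limma). aes1, which lies between cmt2 and SPBPB21E7.08, had 111 ± 32.9 CPM in pfs2-F115H and 95.5 ± 5.83 CPM in ssu72Δ, against 74.0 ± 9.17 CPM in wild type (SD, n = 3), and was called in neither.

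SPBPB2B2.06c had 8.42, 30.1 and 22 CPM in pfs2-F115H, 13.3, 33.6 and 16.1 CPM in ssu72Δ and 10.3, 8.45 and 24.2 CPM in yth1-R59C. All 9 libraries lay above the wild-type range of 1.89 to 3.50 CPM, and within each strain the highest was at least 2-fold above the lowest. Its log2 fold changes were 2.48, 2.59 and 2.03, each with an SE of 0.44 (adjusted p = 0.000107, 5.03e-05 and 0.00393 in limma). The call in yth1-R59C was lost without replicate 3, at 1.61. In the libraries labelled ppn1Δ its mean was 2.60 ± 1.06 CPM, and in PAS-T4A 2.00 ± 0.628 CPM, with wild type at 2.47 ± 0.898 CPM (SD, n = 3 each). In PAS-T4G it had 8.89, 7.72 and 4.77 CPM, all above the wild-type libraries, with a log2 fold change of 1.22 ± 0.44 that was not called (adjusted p = 0.0762 in limma and 0.203 in edgeR), though a fit over these 2 strains alone called it (adjusted p = 0.0226). In PAS-T4C it had 3.84, 14.8 and 2.32 CPM, which overlap wild type (log2 fold change 0.90 ± 0.44, adjusted p = 0.279 in limma).

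SPBPB10D8.02c had 11.5, 9.15 and 7.94 CPM in pfs2-F115H and 7.36, 13.0 and 10.2 CPM in ssu72Δ, below all wild-type libraries (21.5 to 24.3 CPM). It fell by 1.20 on the log2 scale in pfs2-F115H and by 1.13 in ssu72Δ (SE 0.21 each; adjusted p = 0.000105 and 0.000203 in limma). The call in ssu72Δ was lost in 2 of 17 alternatives, among them without ssu72Δ replicate 1, where the value was -0.93, under 2-fold. SPBPB10D8.03 had 0.526, 1.39 and 0.974 CPM in ssu72Δ, against 5.52, 3.78 and 2.96 CPM in wild type. The ssu72Δ values are 3, 6 and 2 reads, so that replicates 1 and 3 are at or under the floor of 3 reads. It fell by 1.37 (SE 0.35, adjusted p = 0.00622 in limma), and 1 of 16 alternatives lost the call. Both genes thus fell in ssu72Δ and swd22Δ and rose in dis2Δ. In the direct contrasts of dis2Δ with these strains SPBPB10D8.02c was higher in dis2Δ by 2.20 ± 0.21 over ssu72Δ and by 3.03 ± 0.21 over swd22Δ (adjusted p = 1.13e-09 and 3.66e-13 in limma). SPBPB10D8.01 had 49.8, 55.9 and 50.8 CPM in pfs2-F115H, below all wild-type libraries. There limma did not call it, but edgeR did (log2 fold change -1.03, adjusted p = 1.68e-07). In ssu72Δ it had 41.5, 58.0 and 68.2 CPM, with a log2 fold change of -0.90 in edgeR (adjusted p = 3.13e-07), under 2-fold.

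SPBPB2B2.08 and say1 were each called once in these strains. say1 had 10.7, 8.61 and 9.0 CPM in pfs2-F115H and 4.26, 5.36 and 2.42 CPM in wild type, with a log2 fold change of 1.10 ± 0.32 (adjusted p = 0.0152 in limma). That call was lost in 4 of 16 alternatives, among them without pfs2-F115H replicate 1, at 1.01, or wild-type replicate 3, at 0.85. SPBPB2B2.08 had 6, 10 and 4 reads in ssu72Δ (1.05, 2.32 and 1.95 CPM), against 0, 3 and 1 in wild type. Its log2 fold change of 1.14 ± 0.38 (adjusted p = 0.0370 in limma) was lost in 7 of 16 alternatives, among them without any 1 wild-type library and without ssu72Δ replicate 2 or 3.

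In yth1-R59C limma called 2 of the 20 members higher and 0 lower, against 0.677% and 0.135% of all tested genes. Beside SPBPB2B2.06c this was SPBPB2B2.01, an amino-acid permease, with 73.0, 63.4 and 83.3 CPM in yth1-R59C against 29.6, 26.2 and 25 CPM in wild type. No library of the groups overlapped, and the log2 fold change was 1.40 ± 0.21 (adjusted p = 3.28e-05 in limma). The same gene was lower in swd22Δ, and its means were 73.2 ± 9.97 CPM in yth1-R59C and 6.99 ± 1.02 CPM in swd22Δ.

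The strains with an altered reporter signal and the libraries labelled ppn1Δ had few or no calls among the 20 members. The members' median log2 fold changes were -0.32 in PAS-T4A, -0.28 in PAS-T4C, -0.15 in PAS-T4G and -0.07 in the libraries labelled ppn1Δ. Over all tested genes these medians were 0.01, -0.04, 0.04 and 0.01. Positive fold changes were seen in 4, 4, 9 and 7 of the 20 members, in the same order. In PAS-T4C 1 member was called lower and 0 higher, against 0.152% and 0.0169% of all tested genes. It was eno102, with 5.51, 8.87 and 11.6 CPM in PAS-T4C against 27.1, 21.0 and 21.8 CPM in wild type, a log2 fold change of -1.37 ± 0.40 (adjusted p = 0.0444 in limma). The groups did not overlap, but the call was lost in 9 of 17 alternatives, each of the 6 that leave out 1 library included. eno102 varied widely within other strains too, with 10.7, 12.5 and 33.6 CPM in ssu72Δ and 8.46, 25.3 and 9.02 CPM in PAS-T4A.

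In PAS-T4A and PAS-T4G 0 members were called in limma, against 0.288% and 0.524% of all tested genes called in either direction. In each, 3 of the 20 had an unadjusted p under 0.05, and edgeR and DESeq2 called 0. In the libraries labelled ppn1Δ limma called 0 members (0.711% of all tested genes in either direction), with 6 at an unadjusted p under 0.05, 1 called by edgeR and 0 by DESeq2. The one called by edgeR was SPBPB10D8.03, with a log2 fold change of -1.39 (adjusted p = 0.0345 in edgeR). aes1 had 40.3 ± 10.2 CPM in these libraries, against 74.0 ± 9.17 CPM in wild type (SD, n = 3 each). Its log2 fold change was -0.83 in edgeR (adjusted p = 0.00102), which is under 2-fold.

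**Figure D5:**
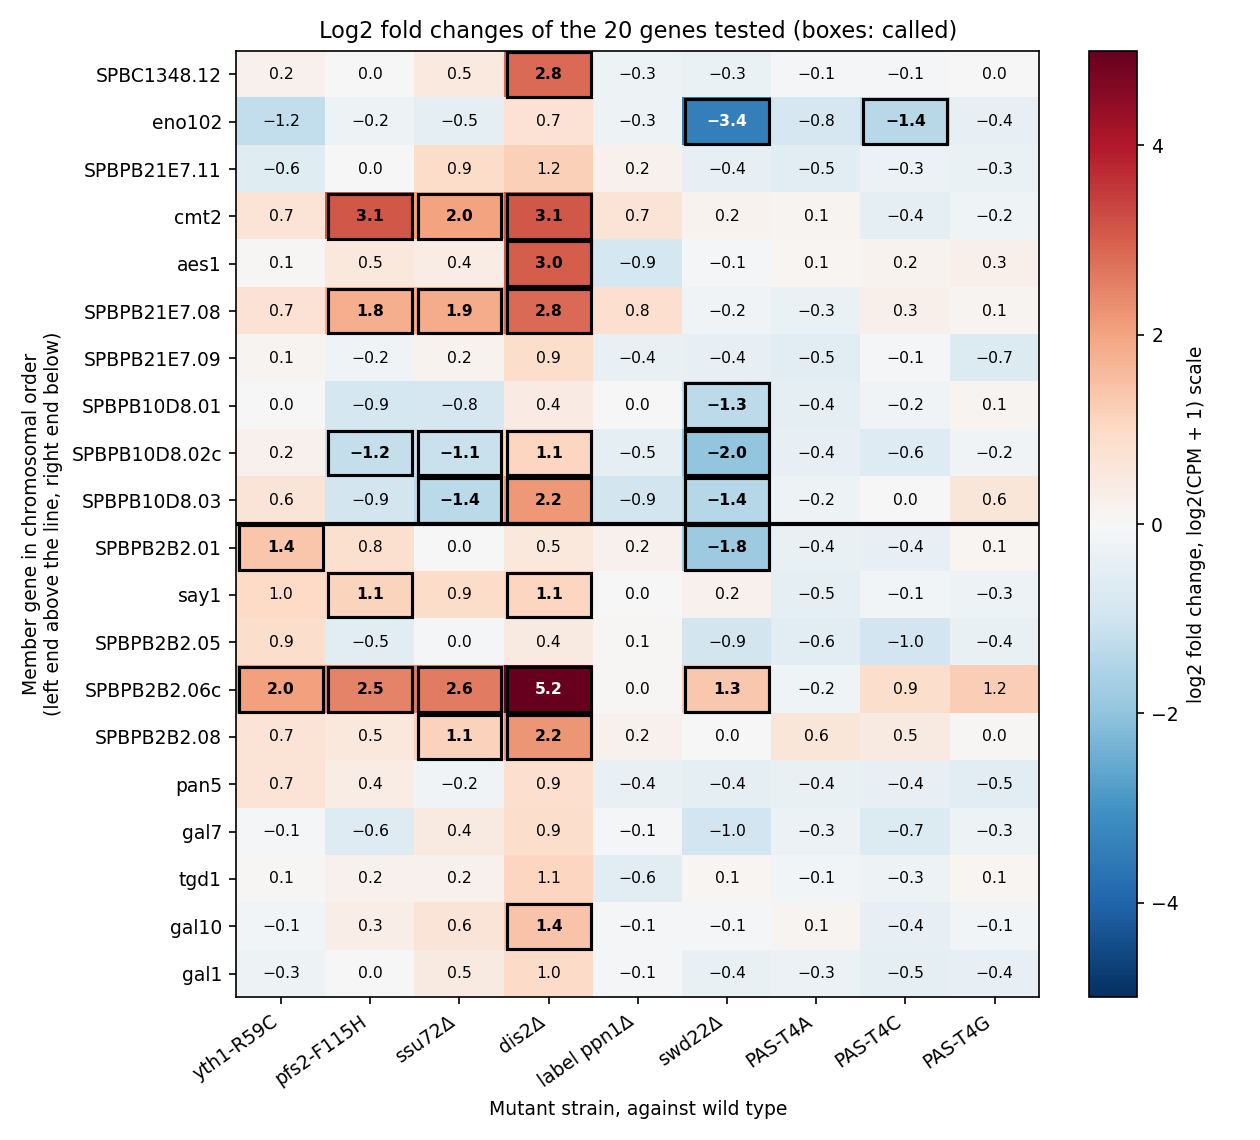
Log2 fold change against wild type on the log2(CPM + 1) scale (colour and printed value) of the 20 tested members (rows, in chromosomal order, left end above the line and right end below) in the 9 mutants (columns). Boxes mark the 30 calls (limma, adjusted p under 0.05 and at least 2-fold): the dis2Δ column holds 10 boxes, all positive, and the swd22Δ column 5 negative and 1 positive.

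Across all 9 comparisons 13 of the 20 tested members were called at least once, against 9.17% of all tested genes, with 30 calls in all, that of SPBPB2B2.08 in dis2Δ included. Of these 13 members 3, SPBPB10D8.02c, SPBPB10D8.03 and SPBPB2B2.01, were higher in 1 strain and lower in another. SPBPB2B2.06c was called in 5 strains, always higher, and cmt2 and SPBPB21E7.08 in 3, always higher.

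By the rule for likeness, the 3 genes of the whole table whose 10 strain means of log2(CPM + 1) ran most alike with those of SPBPB2B2.06c were SPNCRNA.1319 (r = 0.951), coa5 (r = 0.932) and csm1 (r = 0.917). For the mean of gal1, gal7 and gal10 they were SPNCRNA.1162 (r = 0.921), rho5 (r = 0.917) and SPAC144.01 (r = 0.906). Without dis2Δ the 6 values of r lay between 0.759 and 0.915. They describe 10 strains in which dis2Δ is the extreme point, and none of these genes is a member.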

How the data were processed

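Total RNA-seq of 9 mutants and wild type, 30 libraries, was used, and 7 small RNA samples were not analysed here. The authors aligned single-end reads of 50 bases to ASM294v2 with STAR (version 2.7.3a), counted uniquely mapping reads on the transcribed strand with featureCounts (at least 5 bases of overlap) on PomBase annotation, leaving out reads that overlap several genes, and deposited CPM. Repeated genes therefore lose reads. Divided by the step of 1 read, 100% of the values in each library came out whole (within 0.02), so reads were recovered from the deposited CPM for edgeR (version 4.0.16) and DESeq2 (version 1.42.0). edgeR's quasi-likelihood test called between 18 (PAS-T4C) and 299 (ssu72Δ) genes. 

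The main test was limma (version 3.58.1, R 4.3.3) on log2(CPM + 1), as 1 model for the 10 strains with a variance trend (20 residual degrees of freedom). It took the 5911 of 6996 features that averaged 1 CPM or more, with Benjamini-Hochberg adjustment over all of them. The added 1 makes fold changes of low genes smaller than those of their CPM. Scripts were tested on simulated data. Libraries are numbered 1 to 3 per strain in the labels, which do not say that they come from separate cultures, so p-values measure the spread between these libraries, which may be technical. The floor of 3 reads allows for counting error alone, because no molecular identifiers were used.

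Positions, windows and sequences are from RefSeq's ASM294v3, a later version than the authors' build, and 6850 of 6996 features matched it by identifier. The members and the gene lists were chosen with earlier results of these data known. Named genes are the members called at least once, the gal cluster and SPBPB2B2.06c, and the 3 genes most alike in pattern to SPBPB2B2.06c and to the gal genes. Other members were named after their values were seen. Alternatives were a fit over 2 strains, median-of-ratios scaling, a pseudocount of 0.1 or 4, the filter dropped or raised to 10 CPM, a replicate block, edgeR, DESeq2, no minimum change and each library left out. A fit without the libraries labelled ppn1Δ was added after seeing the data.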

Additional observations from a re-analysis of the deposited data

How the results depend on the processing

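Of 42 fold changes against wild type that were recomputed, 30 called and 12 not called, 0 changed sign in the alternatives run. The contrasts between mutants and the values of r were not recomputed. The number of members called in dis2Δ was 10, and it was 6 with a minimum mean of 10 CPM, where fewer members were tested. In ssu72Δ it was 6, and 3 with a pseudocount of 4. In yth1-R59C it was 2, and 4 in a fit over the 2 strains alone, which also gave 1 in PAS-T4G in place of 0. In PAS-T4C it was 1, and 0 with a pseudocount of 0.1, without the filter or with median-of-ratios scaling. edgeR gave 1 in the libraries labelled ppn1Δ. With no minimum change there were 9 in pfs2-F115H in place of 5, and 1 each in the libraries labelled ppn1Δ, PAS-T4A and PAS-T4G. The cause was not tested where none is given. Leaving out 1 library gave 8 to 12 in dis2Δ, 5 to 6 in swd22Δ, 5 to 6 in ssu72Δ, 4 to 6 in pfs2-F115H, 1 to 2 in yth1-R59C, 0 to 1 in the libraries labelled ppn1Δ, 0 to 0 in PAS-T4A, 0 to 0 in PAS-T4C and 0 to 0 in PAS-T4G. The count of 1 in yth1-R59C came without its replicate 3. With the libraries labelled ppn1Δ left out of the fit the counts did not move, at 10 in dis2Δ, 6 in swd22Δ, 6 in ssu72Δ, 5 in pfs2-F115H, 2 in yth1-R59C, 1 in PAS-T4C and 0 in PAS-T4A and PAS-T4G.

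Replicate numbers are shared between strains, but the deviations of same-numbered libraries correlated by between -0.17 and 0.20, so the numbers were not taken as pairing. With a replicate block the counts stayed at 10 in dis2Δ, 6 in swd22Δ, 6 in ssu72Δ, 5 in pfs2-F115H and 2 in yth1-R59C. The median fold change of all genes in pfs2-F115H was 0.12 on the log2 scale as deposited and 0.00195 after median-of-ratios scaling. Depth limits members with few reads, such as SPBPB2B2.08, and unique reads measure repeated members only in part or not at all.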
